A study of Mus musculus with 5 samples.

Results

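The CDK inhibitors of the CIP/KIP and INK4 families were followed in sorted mouse blood-forming cells that had lost the Rb family. The members were all probe sets whose platform annotation gave Cdkn1a, Cdkn1b, Cdkn1c, Cdkn2a, Cdkn2b, Cdkn2c or Cdkn2d as the only gene symbol. This gave 7 genes of 18193 and 9 probe sets of 45037: 5 for the 3 CIP/KIP genes and 4 for the 4 INK4 genes. The cells were KLS cells, sorted as positive for c-Kit and Sca-1 and negative for lineage markers, the fraction that holds haematopoietic stem cells and early progenitors. RNA was measured on Affymetrix arrays, on which a probe set is a group of short probes read out as 1 intensity.

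The deficient group (3 arrays) had the genotype Rb -/- p130 -/- p107-/-, so that none of the pocket proteins was intact. The control group (2 arrays), titled wild type by the study, was Rb +/+ p130 +/+ p107+/- and so lacked 1 copy of the p107 gene itself. The mice carried floxed alleles, and recombination was switched on with the inducible Mx1Cre system at 6 weeks of age. KLS cells were sorted 2 months afterwards. The Mx1 promoter answers to interferon in many cell types, so recombination was not limited to the sorted cells. The labels do not say whether an array came from 1 animal or from a pool, so a p-value here covers nothing beyond the spread among these arrays, part of which may be technical.

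CDK inhibitors brake the cell cycle upstream of the pocket proteins. INK4 proteins bind CDK4 and CDK6 and keep them from pairing with D-type cyclins, which leaves the pocket proteins unphosphorylated and bound to E2F factors. CIP/KIP proteins bind cyclin-CDK complexes more broadly, including those of CDK2. In blood-forming stem cells p57 (Cdkn1c) is known for its part in quiescence, p21 (Cdkn1a) as a target of p53, and the Cdkn2a locus as a target of Polycomb silencing.

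Promoter sequence was available for 6 of the 7 genes, from RefSeq (build GRCm38.p6), in 9 windows of 250 bases before to 50 bases after an annotated start. The 4 stretches below are shown because they hold the p53 and GC box matches of Cdkn1a, a CIP/KIP gene that fell, and the E2F matches of Cdkn2a, an INK4 gene that stayed at the floor of the arrays. They run 5′ to 3′ on the strand of the gene, and capitals mark the motif matches.
Cdkn1a upstream start (chr17:29090919-29090968, plus strand, p53 consensus): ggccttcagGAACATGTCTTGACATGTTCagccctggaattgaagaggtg
Cdkn1a downstream start (chr17:29093659-29093734, plus strand, GC boxes): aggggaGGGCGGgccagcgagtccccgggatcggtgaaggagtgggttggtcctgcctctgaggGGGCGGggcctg
Cdkn2a upstream start (chr4:89294690-89294739, minus strand, E2F): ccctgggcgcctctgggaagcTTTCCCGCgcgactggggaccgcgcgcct
Cdkn2a downstream start (chr4:89282393-89282442, minus strand, E2F): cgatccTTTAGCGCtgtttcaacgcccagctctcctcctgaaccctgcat

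All motifs were searched on both strands. The p53 consensus was searched as 2 adjoining copies of its unit with intact cores and at most 1 other base off, and this setting was chosen after the Cdkn1a sequence had been read. That search matched 18 of 32851 promoter windows (0.0548%) and 1 of the 9 member windows, that at the upstream start of Cdkn1a. The starts of Cdkn1a lie 2790 bases apart. The E2F motif, written TTTNNCGC, was found in both Cdkn2a windows and in none of the other 7 member windows, against 5.17% of all windows. The upstream start of Cdkn2a gives the ARF transcript and the downstream start, 12427 bases away, gives p16. The GC box GGGCGG, bound by Sp1, was in 7 of the 9 member windows and in 35.7% of all windows. The FOXO motif GTAAACA was in 0 of the 9 and in 3.65% of all, the E-box CACGTG in 1 Cdkn2c window and in 7.15% of all, and the CHR element TTTGAA in the Cdkn2b window and in 17.9% of all. A match is a run of letters and does not show that a factor binds there.

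Across the 5 arrays, Pearson correlations over probe sets lay between 0.979 and 0.993, and median log2 intensities between 4.71 and 4.74. Rbl1, which encodes p107, read 5.15, 4.25 and 4.73 in deficient cells, against 8.33 and 7.16 in control cells, on its brightest probe set. With 1 array left out, Rbl1 passed in 1 of 5 limma fits, with differences from -3.62 to -2.45. The median difference of the 3 targeted genes was -0.465, and it was -0.262 without control 1 and -0.774 without control 2. The brightest probe sets of Rb1 and Rbl2 did not pass the test (adjusted p = 0.664 and 0.374, limma), and the place of their probes relative to the deleted parts is not given in the sources used here. Kit read between 10.88 and 11.26 in deficient cells and between 10.83 and 11.08 in control cells, and of 6 measured genes that describe the sort 0 passed in limma (0 also at an unadjusted p under 0.05). Xist, expressed from the inactive X of female cells, read 12.42 on deficient 2 and 9.31 on control 2, against 3.44 to 3.73 on the other 3 arrays. The Y-linked gene Eif2s3y read 3.50 on deficient 2 and 9.81 to 10.37 on the other 4. Control 2, which is 1 of the 2 control arrays, thus read high for both genes, and deficient 2 and control 2 stand apart from the other 3 arrays. The differences of Cdkn1c, Cdkn1a, Cdkn1b, Cdkn2c and Cdkn2d are also given without each of them. For several gene lists, calls or medians are also given with an array left out.

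A difference is the deficient mean minus the control mean of log2 intensities. Differences were fitted with limma, with Benjamini-Hochberg adjustment over the whole table, either over all 45037 probe sets or over 18193 genes with 1 probe set each, the brightest on average. The threshold was an adjusted p under 0.05. Counts at an unadjusted p under 0.05 are given without the share of all genes, which was not counted. Low p-values were common: over all 45037 probe sets, a limma p of 0.0713 (Rbl2, 1418146_a_at) ranked 7721. RMA, the authors' normalization, compresses differences of dim probe sets, and a probe set below the array medians is described here as dim. Levels of different probe sets are not compared, since probes differ in affinity.

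Of the CIP/KIP genes, Cdkn1c and Cdkn1a were lower in deficient cells and Cdkn1b did not pass the test. None of the 4 INK4 genes passed it. With 1 probe set per gene, 2 of the 7 inhibitor genes were called lower and 0 higher, against 1.41% lower and 0.83% higher over all genes. Over all probe sets, where 0.491% were called, 0 of the 9 member probe sets passed in limma, and 3 had an unadjusted p under 0.05: the probe set of Cdkn1c and both of Cdkn1a.

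**Figure D1:**
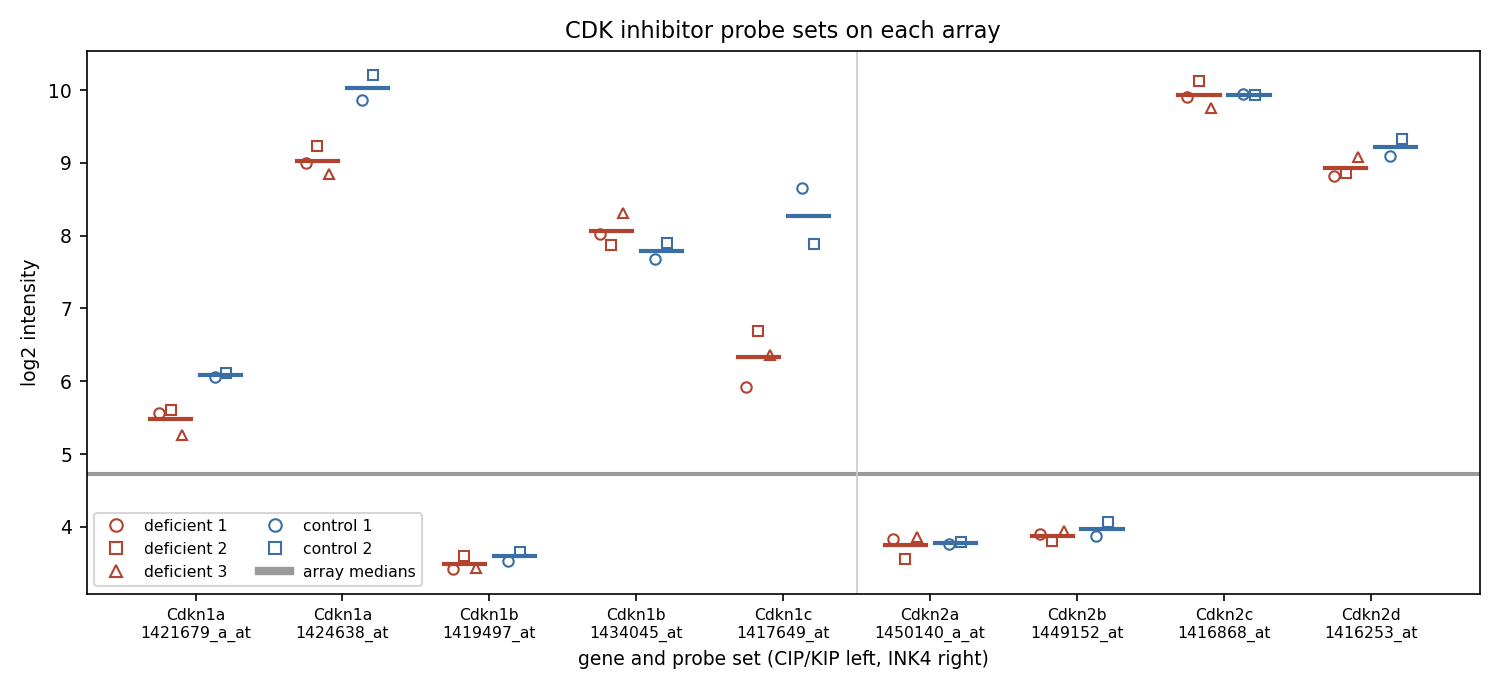
Log2 intensity (vertical axis) of the 9 probe sets of CDK inhibitors on each of the 3 deficient (red) and 2 control (blue) arrays; horizontal bars are group means and the grey band is the range of array medians. Deficient and control arrays do not overlap for Cdkn1c, for both Cdkn1a probe sets and, by only 0.01, for Cdkn2d. The probe sets of Cdkn2a, Cdkn2b and one of Cdkn1b lie below the array medians on all arrays.

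Cdkn1c encodes p57, the CIP/KIP inhibitor that is expressed from the maternal allele only. Its probe set (1417649_at) read 5.93, 6.69 and 6.36 in deficient cells, against 8.66 and 7.88 in control cells. Every deficient array lay below both control arrays, and the control arrays lay 0.78 apart, which is the widest spread within a group among the 9 probe sets. The mean was 6.33 ± 0.38 in deficient cells (SD, n = 3) and 8.27 ± 0.55 in control cells (SD, n = 2), a difference of -1.94 (SE 0.30), or 3.85-fold lower (95% interval 2.31 to 6.41). The adjusted p was 0.0385 with 1 probe set per gene and 0.0684 over all probe sets (limma). Only 94 of 18193 genes had a lower difference.

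The call on Cdkn1c needed all 5 arrays, its size less so. The difference was -1.74 without deficient 1 (adjusted p = 0.0971), -1.96 without deficient 3 (adjusted p = 0.109), -2.13 without deficient 2 (adjusted p = 0.0664) and -2.33 without control 2 (adjusted p = 0.0512, limma). Without control 1, the array that read highest, it was -1.56 (adjusted p = 0.127), the smallest of the 5 fits with an array left out.

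Cdkn1a encodes p21, which p53 induces after DNA damage and which binds cyclin-CDK complexes and PCNA. Its brighter probe set (1424638_at) read 9.003, 9.237 and 8.842 in deficient cells, against 9.861 and 10.201 in control cells. The groups did not overlap, with the highest deficient array 0.62 below the lowest control array. The means were 9.03 ± 0.20 (SD, n = 3) in deficient cells and 10.03 ± 0.24 (SD, n = 2) in control cells, a difference of -1.004 (SE 0.17), or 2.01-fold lower (95% interval 1.51 to 2.67). The adjusted p was 0.0458 with 1 probe set per gene and 0.0779 over all probe sets (limma).

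The dimmer Cdkn1a probe set (1421679_a_at) was not used in the fit by gene and ran the same way. It read 5.56, 5.61 and 5.26 in deficient cells, against 6.06 and 6.12 in control cells, again without overlap. Its difference was -0.61 (SE 0.14, adjusted p = 0.134, limma). Deficient 3 read lowest and deficient 2 highest of the deficient arrays on both Cdkn1a probe sets, whereas deficient 1 read lowest for Cdkn1c. Without deficient 2 the difference of the brighter probe set was -1.11 (adjusted p = 0.0734), and without control 2 it was -0.83 (adjusted p = 0.135, limma). Without deficient 1, deficient 3 or control 1 it was -0.99, -0.91 and -1.17 (adjusted p = 0.131, 0.118 and 0.0997). With each array centred on its median it was -0.99 and just missed the threshold (adjusted p = 0.0523).

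Cdkn1b encodes p27, the CIP/KIP inhibitor that the SCF-Skp2 ubiquitin ligase marks for destruction. Its brighter probe set (1434045_at) read 8.02, 7.87 and 8.31 in deficient cells, against 7.68 and 7.90 in control cells. The groups overlapped, since deficient 2 lay just below control 2. The difference was 0.28 (SE 0.16, adjusted p = 0.458 with 1 probe set per gene, limma), with a 95% interval of -0.12 to 0.67. The interval leaves out any fall of more than 0.12 and so the size of the falls of Cdkn1a and Cdkn1c, although the differences between genes were not tested. The size moved with single arrays: it was 0.37 without deficient 2, 0.39 without control 2, 0.16 without deficient 3 and 0.16 without control 1. The other Cdkn1b probe set (1419497_at) was dim on all arrays, between 3.42 and 3.60 in deficient cells and 3.53 and 3.66 in control cells. Its difference of -0.11 (95% interval -0.39 to 0.18) had the opposite sign, and the mean of both probe sets differed by 0.084.

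**Figure D2:**
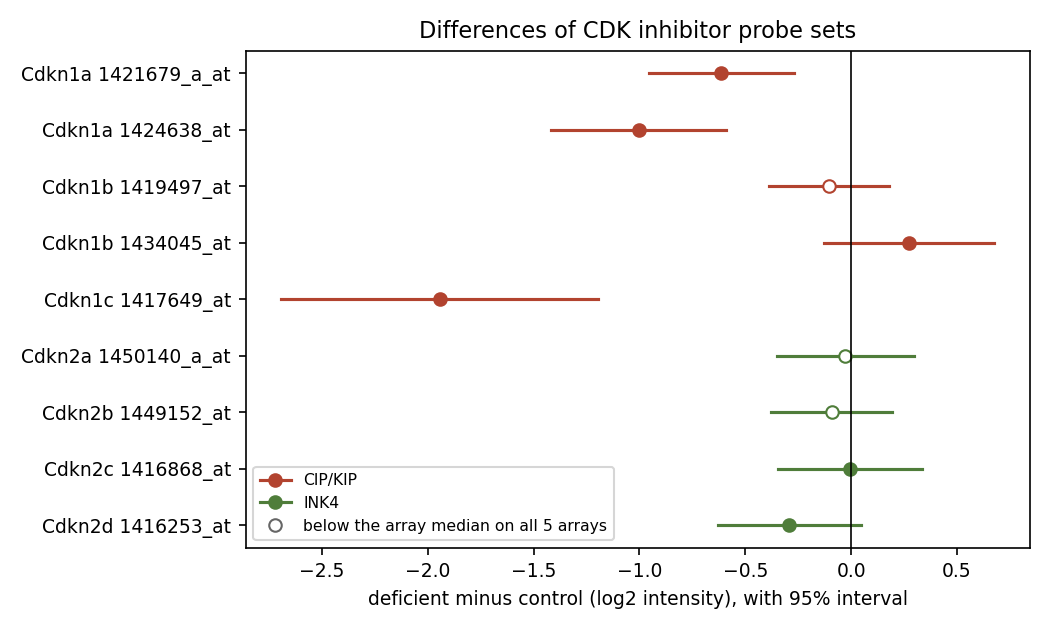
Difference of deficient minus control log2 intensity (horizontal axis, points) with its 95% interval (lines) for the 9 probe sets, from limma over all probe sets; open points were below the array median on all 5 arrays. The intervals of Cdkn1c and of both Cdkn1a probe sets lie wholly below 0, and those of the other 6 probe sets include 0.

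The INK4 genes fell into a pair that read well above the array medians and a pair at the floor. Cdkn2c encodes p18, an INK4 protein expressed in blood-forming progenitors. It read 9.91, 10.13 and 9.76 in deficient cells, against 9.94 and 9.93 in control cells, so that the control values lay inside the deficient range. The difference was -0.005 (SE 0.14, adjusted p = 0.993 with 1 probe set per gene, limma), with a 95% interval of -0.34 to 0.34. A change of more than 1.27-fold in either direction lay outside that interval. The difference was -0.10 without deficient 2 and -0.010 without control 2.

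Cdkn2d encodes p19 of the INK4 family (not the ARF product of Cdkn2a). It read 8.82, 8.87 and 9.09 in deficient cells, against 9.10 and 9.33 in control cells. The groups did not overlap, but deficient 3 and control 1 lay only 0.01 apart. The difference was -0.29 (SE 0.14, adjusted p = 0.343, limma), with a 95% interval of -0.63 to 0.05. The difference was -0.26 without deficient 2 and -0.18 without control 2.

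Cdkn2a and Cdkn2b encode p16 and p15, the INK4 inhibitors known from senescence, and Cdkn2a also encodes ARF, which stabilises p53. The Cdkn2a probe set (1450140_a_at) read 3.83, 3.56 and 3.87 in deficient cells, against 3.77 and 3.79 in control cells. The Cdkn2b probe set (1449152_at) read 3.89, 3.80 and 3.94 in deficient cells, against 3.87 and 4.07 in control cells. Both were dim on all 5 arrays and their groups overlapped, with differences of -0.03 (SE 0.13) and -0.09 (SE 0.12). At such intensities the arrays give no measure of a change, and the Cdkn2a probe set is not assigned here to p16 or ARF.

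The families are set side by side as a description, and the difference between them was not tested. The median difference was -1.004 over the 3 CIP/KIP genes and -0.06 over the 4 INK4 genes, against -0.010 over all genes. The INK4 median counts Cdkn2a and Cdkn2b, whose intensities give no measure of a change, and it ran from -0.113 to -0.014 with an array left out. The CIP/KIP differences were -1.94, -1.004 and 0.28, and those of the INK4 genes above the floor, Cdkn2d and Cdkn2c, were -0.29 and -0.005. On 2 of the 3 CIP/KIP genes and 1 of the 4 INK4 genes every deficient array lay below both control arrays, where 18.6% of all genes did so.

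Each array was also summarised by its mean deviation from the control mean over the genes of a family. The CIP/KIP mean was -1.05, -0.77 and -0.86 in deficient cells, against 0.04 and -0.04 in control cells. The INK4 mean was -0.11, -0.14 and -0.06 in deficient cells, against -0.05 and 0.05 in control cells. The CIP/KIP means separated the groups by more than the spread of these means within them, and the INK4 values of deficient 3 and control 1 were nearly the same. The small spread of the CIP/KIP control means hides wider ones of single genes, which ran in opposite directions. Control 1 read above control 2 by 0.78 for Cdkn1c, and below it by 0.34 for Cdkn1a and 0.22 for Cdkn1b.

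The CIP/KIP mean minus the INK4 mean was -0.79 ± 0.15 in deficient cells (SD, n = 3) and 0 ± 0.13 in control cells (SD, n = 2), where the control mean is 0 by construction. With Cdkn2a and Cdkn2b left out as dim, it was -0.74. With any array left out it stayed between -0.88 and -0.70. No p-value is attached, since the members were chosen with results in view and 3 against 2 arrays cannot reach an exact permutation p below 0.1. The CIP/KIP mean also rests on 2 of 3 genes, both of which lost their call with any array left out.

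**Figure D3:**
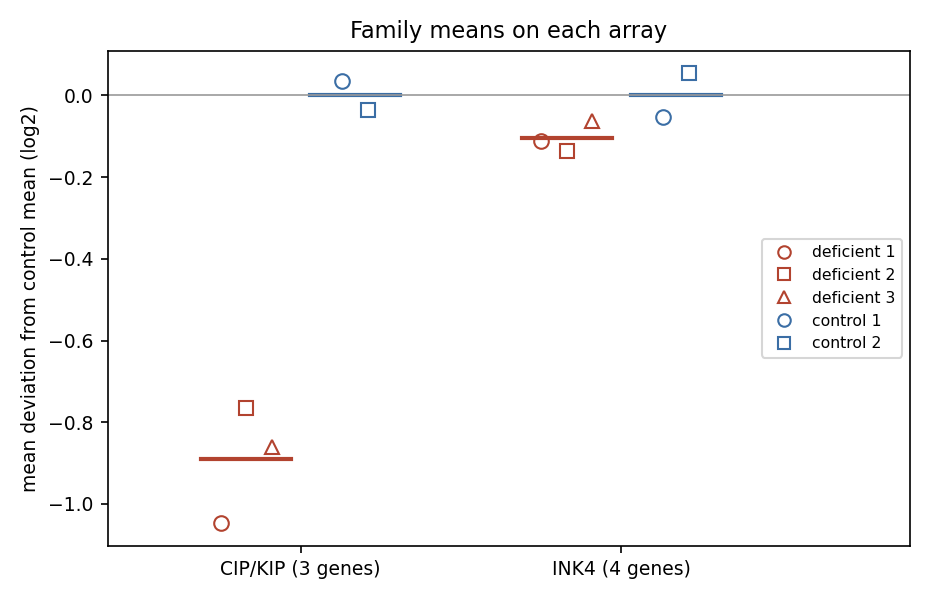
Mean deviation from the control mean (vertical axis, log2) over the 3 CIP/KIP genes and the 4 INK4 genes on each of the deficient (red) and control (blue) arrays; horizontal bars are group means. The deficient arrays sit between -1.05 and -0.77 for CIP/KIP and between -0.14 and -0.06 for INK4.

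The genes whose 5 values ran most like those of Cdkn1c and Cdkn1a were found by the root mean square distance of centred log2 values, over 18192 other genes. Nearest to Cdkn1c were P2ry10, a lysophospholipid receptor gene (distance 0.17), Prg2, which encodes eosinophil major basic protein (0.19), and Hacd4, a gene of fatty acid elongation (0.20). Hacd4 read 8.30, 8.51 and 8.54 in deficient cells, against 10.93 and 9.86 in control cells, with control 1 above control 2 as for Cdkn1c. Prg2 was dim on the 3 deficient arrays, at 3.77, 3.95 and 3.86. Near to Cdkn1a lay the small heat shock protein gene Hspb8 (0.060) and Wfdc2 (0.073). Within a distance of 0.3 lay 429 genes for Cdkn1a and 11 for Cdkn1c, so the genes named for Cdkn1a are a few of many.

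The partners that the inhibitors bind were compared next, in a list of 10 G1 and S phase cyclin and CDK genes. Of these 1 rose, 0 fell and 9 did not pass, with a median difference of 0.00. The one that rose was Cdk6, a kinase bound by INK4 proteins, with 13.01, 12.97 and 13.05 in deficient cells, against 12.07 and 12.02 in control cells (difference 0.97, SE 0.10, adjusted p = 0.0173, limma). Ccna2, the S and G2 phase cyclin A2 gene, differed by 0.73 (adjusted p = 0.122) without overlap. Cdk4, the other INK4 target, differed by -0.05 and Cdk2, the main CIP/KIP target, by 0.22 (adjusted p = 0.889 and 0.474).

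Genes that control the turnover of inhibitor proteins gave 0 of 12 past the threshold, in either direction (limma; 2 had an unadjusted p under 0.05, Dtl and Usp7). Dtl, part of the ligase that destroys p21 in S phase, differed by 0.60 (SE 0.14, adjusted p = 0.101). The p53 and ARF ligase regulator Usp7 differed by 0.44 (adjusted p = 0.156). Skp2, the receptor for p27, differed by -0.19 (adjusted p = 0.808, limma). The list median was 0.18, and 0.105 without control 1.

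Among 18 genes that act upstream of Cdkn1 genes, 1 rose, 1 fell and 16 did not pass (median 0.17, and 0.063 without control 2). Klf4, a transcription factor known to activate Cdkn1a, read 4.46, 4.16 and 4.25 in deficient cells, against 7.20 and 6.37 in control cells (difference -2.49, SE 0.25, adjusted p = 0.0148, limma), and was dim on the 3 deficient arrays. Gfi1, a repressor known to hold down Cdkn1a, read 9.58, 9.59 and 9.88 in deficient cells, against 8.79 and 8.75 in control cells (difference 0.91, SE 0.14, adjusted p = 0.0357). Foxo1, which activates CIP/KIP genes, had the next smallest p, with a difference of -0.68 (adjusted p = 0.0884). Foxo3, a FOXO factor known to activate the same genes, had the opposite sign, with a difference of 0.51 and no overlap (adjusted p = 0.211, limma). In this list of 18 the deficient arrays lay above both control arrays for 9 genes and below both for 6, where 16.5% and 18.6% of all genes lay so.

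Of 20 genes upstream of Cdkn2 genes, 1 rose, 0 fell and 19 did not pass (median 0.06, and 0.103 without control 1). The member that rose was Suz12, a subunit of the Polycomb complex that silences Cdkn2a, with 9.997, 10.071 and 9.933 in deficient cells, against 9.335 and 9.386 in control cells (difference 0.64, SE 0.11, adjusted p = 0.0458, limma). E2f3 differed by 0.61 and Ets1, an activator of p16, by -0.999, each with an adjusted p of 0.0578. Bmi1, the Polycomb gene best known for keeping Cdkn2a silent in stem cells, differed by -0.07 (adjusted p = 0.893).

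Of 24 other p53 targets, 0 rose, 1 fell and 23 did not pass, with a median of -0.11, and of -0.038 without control 1. Trp53inp1 fell by 0.90 on the log2 scale (SE 0.15, adjusted p = 0.0415), reading 9.46, 9.67 and 9.37 in deficient cells, against 10.52 and 10.28 in control cells. Dcxr differed by -0.76 and Perp, an apoptosis gene, by 0.75 (adjusted p = 0.0914 and 0.0974, limma). Of the 24, 8 had an unadjusted p under 0.05 in limma, all of them lower in deficient cells except Perp. The share of all genes at that p was not counted. Over the list, 14 genes had a lower mean in deficient cells and 10 a higher one. The groups did not overlap for 9 of the 24 with deficient lower and for 4 with deficient higher, where the shares of all genes were 18.6% and 16.5%.

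**Figure D4:**
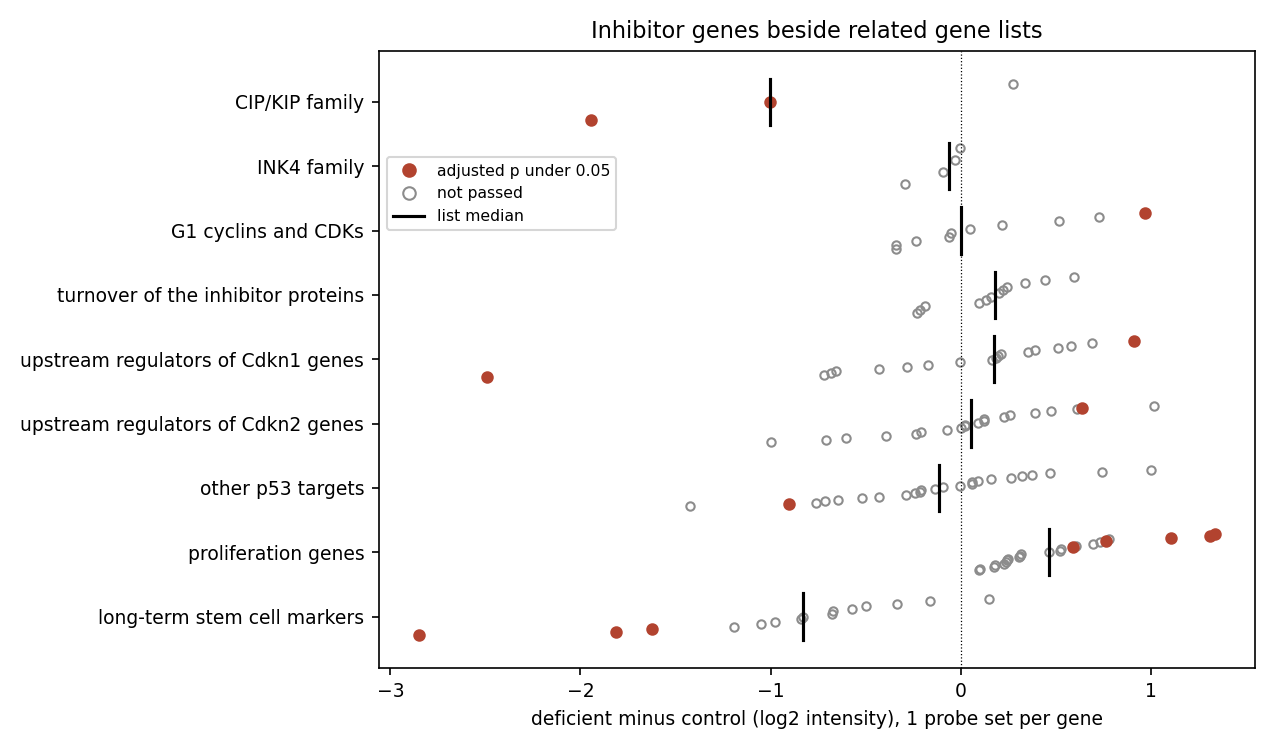
Difference of deficient minus control log2 intensity (horizontal axis) of each gene in 9 lists, with 1 probe set per gene; filled red points passed an adjusted p of 0.05 and black bars are list medians. The CIP/KIP median of -1.004 lies left of the INK4 median of -0.06, and the 23 proliferation genes lie right of 0.

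Chromosomal neighbours of the 7 genes gave 0 calls in limma among 17 genes that lay 0.5 to 390.1 kb away, of which 4 had an unadjusted p under 0.05. Around Cdkn1c on chromosome 7, which lies in an imprinted cluster, the deficient arrays lay apart from the control arrays on 3 of 5 neighbours, higher on 1 and lower on 2, where 16.5% and 18.6% of all genes lay so. Kcnq1ot1, the antisense RNA that silences the cluster on the paternal allele, read 7.48, 7.74 and 7.45 in deficient cells, against 7.17 and 6.55 in control cells (difference 0.70, SE 0.21, adjusted p = 0.148, limma). Slc22a18 and Phlda2, expressed from the maternal allele like Cdkn1c, differed by -0.58 (adjusted p = 0.160) and -0.96 (adjusted p = 0.256). Kcnq1, also in the imprinted cluster, differed by -0.005 and Nap1l4 by -0.11 (adjusted p = 0.993 and 0.720, limma), both with overlap. Beside Cdkn1a, Rab44 at 13.4 kb differed by 0.81 (adjusted p = 0.136), opposite in sign to Cdkn1a. Mtap and Dmrta1, the neighbours of Cdkn2a and Cdkn2b, differed by -0.26 and -0.14.

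With 1 array left out, Cdk6, Gfi1, Suz12 and Trp53inp1 passed in none of the 5 fits and Klf4 in 3 of them. Their sizes were steadier than their calls: Cdk6 differed by 0.94 to 0.99, Gfi1 by 0.81 to 0.97, Suz12 by 0.60 to 0.67 and Trp53inp1 by -1.02 to -0.78 in those fits.

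Other gene groups also differed between deficient and control cells. Of 23 proliferation genes, all 23 had a higher mean in deficient cells and 5 rose (Bub1, Mki67, Cenpf, Foxm1 and Plk1), with a median of 0.46. Without control 1, 0 of the 23 passed and the median was 0.30, and without any other array 1 to 3 did. Mki67, the proliferation marker, read 12.45, 12.56 and 12.45 in deficient cells, against 11.32 and 11.44 in control cells. Of 15 markers of long-term stem cells, in which Cdkn1c is known to be high, 0 rose, 3 fell (Procr, Clec1a and Ndn) and 12 did not pass, with a median of -0.83, and of -0.48 without control 1. Without control 1 or without deficient 3, 0 of the 15 passed in limma (9 had an unadjusted p under 0.05 with all arrays). The summed intensity of these 15 markers was 4826 to 6007 in deficient cells and 7797 to 12203 in control cells. In RNA from sorted populations, fewer cells of a type and less RNA per cell cannot be told apart, and this holds for Cdkn1c and Cdkn1a as well.

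Markers of some mature cell types were also lower in deficient cells, although the sort removes cells with lineage markers. Of 12 neutrophil markers 10 fell and 2 did not pass, 7 to 9 fell with an array left out, and their summed intensity was 7524 to 9508 in deficient cells and 57137 to 70841 in control cells. Elane, a gene of early granulocytes, was among those that did not pass, with a difference of 0.81 and no overlap (adjusted p = 0.157, limma). Elane made up most of the deficient sums, at 12.19 or more, where no other marker of the list read above 9.551 in deficient cells. The falls of some markers, up to 71.3-fold for Ngp, were therefore larger than the sums show. Of 10 B and plasma cell markers 3 fell and 7 did not pass, with sums of 1194 to 1296 in deficient cells and 15960 to 28988 in control cells. With an array left out, 2 to 5 of these 10 passed. Of 10 T and NK cell markers 3 fell and 7 did not pass (2 to 4 fell with an array left out), but their sums overlapped, at 2453 to 3069 in deficient cells and 2086 to 2771 in control cells. One that did not pass, the cytotoxic granule gene Nkg7, differed by 0.63 without overlap (adjusted p = 0.152, limma). Nkg7 made up most of these sums, at 10.41 or more on every array, where no other marker of the list read above 8.57. Of the 10, 8 had a lower mean in deficient cells and 2 a higher one. Of 10 macrophage and dendritic cell markers 1 fell, Cd74, with sums of 1962 to 2905 in deficient cells and 6161 to 8500 in control cells, and 0 passed without deficient 2 or without control 1. Of 10 stroma and endothelium markers 1 fell, Emcn, which passed in 0 of the 5 fits with an array left out. The sums were higher in deficient cells, at 1957 to 3286 against 1080 to 1378 in control cells, but rested mostly on Pdgfrb. Pdgfrb read 10.77, 11.39 and 11.59 in deficient cells, against 10.13 and 9.71 in control cells (adjusted p = 0.0686, limma). Of the 10 markers, 6 had a lower mean in deficient cells and 4 a higher one. Of 8 erythroid markers 0 passed, with 2 at an unadjusted p under 0.05 (limma). Their sums were 14047, 6619 and 7503 in deficient cells, against 13423 and 12701 in control cells, and overlapped through deficient 1 only. None of these 6 lists had a rise. The markers dim on all arrays numbered 1 of 12 for neutrophils, 2 of 10 for B and plasma cells, 1 of 10 for T and NK cells, 1 of 10 for macrophages, 3 of 8 for erythroid cells and 5 of 10 for stroma and endothelium. The part of these cell types in the lower Cdkn1a and Cdkn1c was not tested.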

How the data were processed

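RNA from sorted mouse KLS cells was labelled with biotin and hybridised to Affymetrix arrays, per the labels' protocols; 1 of 6 arrays was left out by the authors. The deposited intensity values were made by the authors with RMA, per the submitters' processing notes; its version is not given in the sources used here. They ran from 6.96 to 31249 on a linear scale, and log2 was taken here. For arrays no depth applies, and their number limits the precision. Columns of other samples numbered 0.

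Arrays were grouped by title. limma 3.58.1 in R 4.3.3 (lmFit, eBayes, two-sided, no covariate) was fitted over 45037 probe sets, without 64 AFFX controls, and over 18193 genes with the brightest probe set each. Of the probe sets, 34945 had 1 symbol in GEO's platform annotation, 932 several and 9160 none. Of 221 list genes 211 matched, and the other 10 were not analysed here. In data simulated for this comparison with 200 of 45037 probe sets changed, limma called 23.9% of those moved by 1 log2 unit, 83.6% by 2 and 100% by 4, with 7 false calls.

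The text names all member probe sets, the targeted genes, list genes called or up to 3 with the smallest p, and, of the 3 genes nearest in pattern to each called member, all but 1, which is not reported here. Kit, Xist, Eif2s3y, Cdk2, Cdk4, Skp2, Bmi1, Foxo3, Phlda2, Kcnq1, Nap1l4, Elane, Nkg7, Mtap and Dmrta1 were named outside that rule, after their values were seen. Members and lists were chosen with earlier results of these data known. Alternatives are in the closing section.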

Additional observations from a re-analysis of the deposited data

How the results depend on the processing

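The 3 against 2 design limits every call. With 1 array left out, 0 of the 7 inhibitor genes and 0 of the 9 probe sets passed in any of the 5 fits; probe sets called over the whole table numbered 23 to 78 and genes 71 to 215, against 221 and 408 with all arrays. In these fits the differences ran from -2.33 to -1.56 for Cdkn1c and from -1.17 to -0.83 for Cdkn1a. Their sign could not turn, since the groups of arrays do not overlap for either gene. The CIP/KIP minus INK4 difference ran between -0.88 and -0.70 over the alternatives that could move it. Some settings cannot move it, such as median centring, an intensity trend or a threshold of 0.1, and it was -0.79 there. With the replicate block, 15 probe sets, 21 genes and 0 inhibitor genes passed (limma, Cdkn1a adjusted p = 0.142, Cdkn1c 0.175). Deviations of same-numbered arrays from their group means had correlations of -0.053 and -0.018. With 2 control arrays, the deviations of 1 are the other's with the sign turned. These correlations therefore cannot decide whether the numbers pair the samples. Median centring left 1 inhibitor gene called, Cdkn1c. An intensity trend gave 401 probe sets, 1 of them a member, and an adjusted p under 0.1 gave 948 probe sets, 1065 genes and 2 member probe sets. Signs near 0 turned for genes not called: with an array left out, Cdkn2a ran from -0.0848 to 0.0696, Cdkn2b from -0.1914 to 0.0066 and Cdkn2c from -0.1032 to 0.0818; Cdkn2a read 0.0081 with array weights, and Cdkn2c 0.0108 with median centring and 0.0818 with the replicate block. The cause was not tested. Low intensity limits Cdkn2a and Cdkn2b.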
